A study of Mus musculus with 2 samples.

Results

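Microtubules are hollow tubes of alpha and beta tubulin, and motor proteins carry cargo along them. The genes described here are those of the deposited mouse table whose symbols name tubulins, cytoplasmic dynein, dynactin, kinesins, stathmins, end-binding proteins or CLASPs, without 11 kinesins that work in mitosis. This rule found 71 of the 14694 genes in the table. They were 16 tubulin genes, 26 kinesins, 20 subunits of dynein and dynactin, and 9 genes of stathmins, end-binding proteins and CLASPs.

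RNA was sequenced, after depletion of ribosomal RNA, in 1 library labelled IR and 1 labelled NC. For both libraries the labels name mouse lung fibroblasts as the source and carry the number 4. They give no strain, age or genotype and spell out neither group name. The series concerns radiation-induced lung fibrosis, rosmarinic acid and the turning of fibroblasts into myofibroblasts, and the labels' protocols begin with culture supernatants freed of large vesicles, so it is not stated whether cells or vesicles gave the RNA. Each group being 1 library, no difference could be checked in replicates or tested, and every difference below is one between these libraries, not between conditions.

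Counted reads came to 35219511 in IR and 36084512 in NC. The table held 6 of 8 fibroblast markers, none at 0, with a sum of 2848 CPM (reads scaled to a common library size) in IR and 2861 in NC. Vim (vimentin) was higher in IR (0.27), while 4 of the 5 compared markers, Col1a2 (-0.73), Pdgfrb (-0.42), Pdgfra (-0.41) and Col3a1 (-0.23), had intervals below a ratio of 1. Dcn (decorin), a defining fibroblast gene, had only 30 and 7 reads. Of 8 markers of ciliated epithelium, a tissue rich in tubulin and dynein, the table held 4, together at 0.917 and 0.796 CPM. In NC, Dnah5 and Ccdc39 of these were at 0. Of 8 neuronal markers 7 were in the table, at 4.13 and 4.58 CPM in sum. Most of that came from Map2 (114 and 146 reads), and Rbfox3, Nefm and Elavl3 were at 0 in IR. Markers of mesothelium (3 of 4 in the table) stood at 99.7 CPM in IR and 199 in NC, nearly all from Msln, and their part in the differences below was not tested. Epithelial markers (3 of 5) summed to 0.946 and 0.494 CPM, endothelial ones (4 of 4) to 2.69 and 1.65, and macrophage ones (3 of 4) to 83.4 and 60.2, nearly all from Cd68. Fewer cells of a type and less RNA per cell cannot be told apart in such bulk libraries.

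Alpha and beta tubulin join as dimers, and fibroblasts build them from several near-identical genes, or isotypes, that differ mainly in the acidic tail at the end of the protein. Gamma tubulin seeds new microtubules, stathmins hold free dimers, and end-binding proteins and CLASPs ride on growing ends. Dynein, helped by dynactin, walks towards the minus end near the cell centre, while most kinesins walk outward. Fibroblasts use these tracks to migrate, to position organelles and to deliver membrane and matrix cargo.

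Differences are given as the log2 ratio of IR over NC, so positive values mean more reads in IR after scaling for library size. Each has an exact 95% interval that covers counting error only. Ratios were computed for the 60 members with at least 50 reads over both libraries. Of all 10921 genes compared in this way, 1.6% were at least 2-fold higher with an interval above a ratio of 1, and 1.82% at least 2-fold lower, 3.42% in either direction. Among the 60 members, 1 was at least 2-fold higher (1.67%) and 2 were at least 2-fold lower (3.33%). The interval lay above a ratio of 1 for 31.2% of all genes and for 26 members (43.3%), and below it for 32.4% of all genes and 17 members (28.3%). The median log2 ratio was -0.0044 over the members and -0.0069 over all genes compared.

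By family, tubulins lay mostly above a ratio of 1 and kinesins mostly below, a difference that was not tested. Of the 13 compared alpha and beta tubulins, 11 had an interval above a ratio of 1 and none below, with a median log2 ratio of 0.30. With library totals alone as scaling, 9 of the 13 had intervals above 1, and Tubb5 moved from 0.02 to -0.0077. Of the 19 compared kinesins, 3 had an interval above a ratio of 1 and 10 below, with a median of -0.12. Dynein and dynactin were mixed, with 9 of 19 above, 6 below and a median of 0.15. Both ends of the range were held by genes with few reads.

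**Figure D1:**
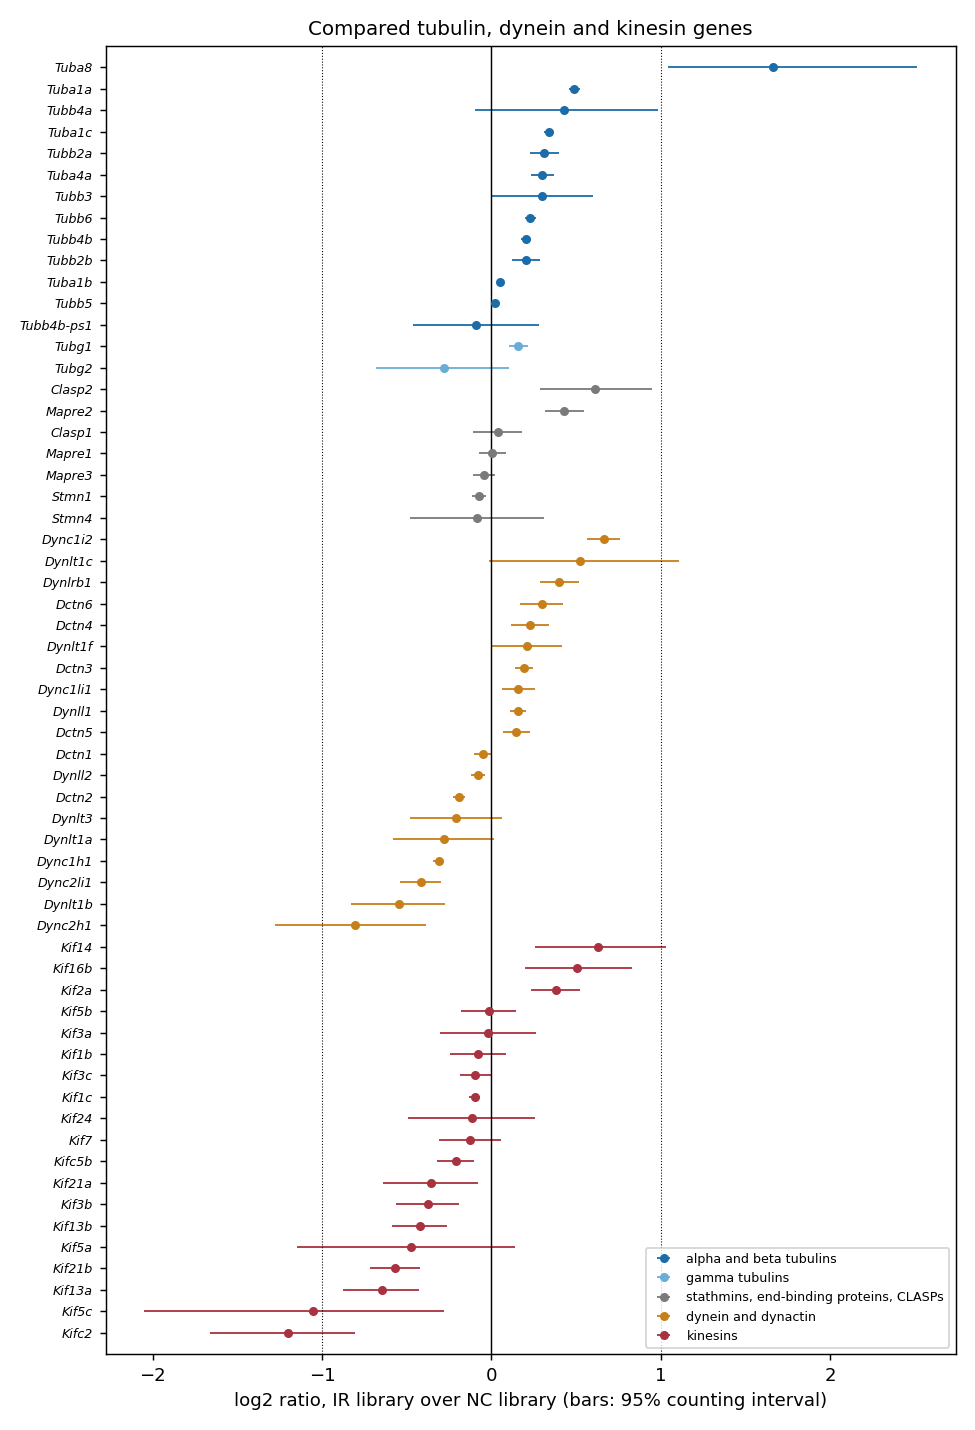
Log2 ratio of the IR library over the NC library for the 60 compared genes, by family, with 95% counting intervals as bars and dotted lines at 2-fold. Tubulins lie mostly to the right of 0, with Tuba8 at 1.66, and kinesins mostly to the left, with Kifc2 at -1.20; under scaling by library totals the value of Tubb5 turns from 0.02 to -0.0077.

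The alpha tubulins were dominated by a cluster on chromosome 15. Tuba1b (98931425 to 98934565, GRCm38) and Tuba1a (98949837 to 98953703) lie 15.3 kb apart on the minus strand, and Tuba1c (99029891 to 99038110) lies 76.2 kb further on the plus strand. Their coding sequences are 97.1% to 98.3% identical, so the reads of each depend on how the counting treated shared sequence.

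Tuba1b, the isotype most abundant in many dividing cells, had 41781 IR and 42088 NC reads, a log2 ratio of 0.05 (interval 0.03 to 0.07). Tuba1a, known for its part in developing neurons, had 17772 and 13203 reads (0.49, interval 0.46 to 0.52). Tuba1c had 21815 and 17984 reads (0.34, interval 0.31 to 0.37). Within the cluster the less abundant genes were thus further above NC than Tuba1b, which lay close to 0 on this scale. Per length of exon, Tuba1b supplied 52.2% of alpha tubulin in IR and 58.3% in NC, Tuba1a 23.1% and 19.0%, and Tuba1c 22.3% and 20.4%. Tuba1a and Tuba1c lay close together, and their order differed between the libraries. Per coding length Tuba1c was above Tuba1a in both, with 25.8% against 20.9% in IR and 23.7% against 17.3% in NC. Tuba1b then supplied 49.1% in IR and 55.1% in NC. The 3 genes summed to 81368 and 73275 reads, and this sum had a log2 ratio of 0.21 (interval 0.20 to 0.23).

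Sequence shared beyond the cluster is a limit of these values. Of the 50-base words of Tuba1a, Tuba1b and Tuba1c, 75.5%, 75.1% and 52.7% occur in other annotated genes, one another included. Other genes, Gm49450 above all, overlap 26.2% of the exon sequence of Tuba1a and 27.4% of that of Tuba1b. The remaining alpha tubulins were minor. Tuba4a (chromosome 1, 75214228 to 75219865), an isotype whose gene encodes no terminal tyrosine, had 3710 and 3142 reads (0.30, interval 0.23 to 0.37), and 37.3% of its exon sequence overlaps Stk16 or other genes.

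Tuba8 (chromosome 6, 121210696 to 121226854), a divergent isotype, had 71 IR and 22 NC reads. Its log2 ratio of 1.66 (interval 1.05 to 2.51) was the highest of all members, and it is the member called at least 2-fold higher. At 0.899 and 0.267 reads per kilobase of exon scaled like CPM (RPKM) it made up 0.0735% of alpha tubulin in IR and 0.0253% in NC. Other genes, chiefly the antisense Gm15856, overlap 16.3% of its exon sequence, and the strand setting of the counting is not stated. Tuba3a had 1 read in IR and 0 in NC.

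Beta tubulin was mostly Tubb5. The last 60 coding bases, which encode the tail that tells isotypes apart, are shown for 4 abundant beta tubulins and for the neuronal Tubb3, 5′ to 3′ as in GENCODE vM21 transcripts. Capitals mark bases that differ from Tubb5, or have no counterpart in it, after alignment of the whole coding sequences.
Tubb5: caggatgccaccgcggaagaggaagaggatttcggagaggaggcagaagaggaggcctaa
Tubb4b: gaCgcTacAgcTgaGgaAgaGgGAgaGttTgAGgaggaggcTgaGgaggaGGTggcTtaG
Tubb2a: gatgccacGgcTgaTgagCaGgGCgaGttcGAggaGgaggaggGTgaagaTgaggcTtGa
Tubb2b: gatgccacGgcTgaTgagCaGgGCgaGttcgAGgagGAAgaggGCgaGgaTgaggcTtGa
Tubb3: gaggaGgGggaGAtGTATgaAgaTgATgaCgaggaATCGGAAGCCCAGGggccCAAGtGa
Of the 60 bases, 20 (Tubb4b), 16 (Tubb2a), 19 (Tubb2b) and 32 (Tubb3) are so marked. These numbers include bases opposite a gap, and which bases are marked depends on where the alignment placed the gaps.

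Tubb5 (chromosome 17, 35833921 to 35838306), the common beta tubulin of dividing cells, had 81348 IR and 83794 NC reads (log2 0.02, interval 0.0058 to 0.03). It had the highest level per length of all members, 701 RPKM in IR and 691 in NC. Only 0.0892% of its 50-base words occur elsewhere, so its value depends little on shared sequence. Tubb4b, an isotype of cilia and of many other cells, had 19986 and 18104 reads (0.21, interval 0.18 to 0.23). Tubb6, a beta tubulin of many non-neuronal cells, had 17384 and 15472 reads (0.23, interval 0.20 to 0.26), and none of its words is shared. These isotypes lay further above NC than Tubb5, which was close to 0.

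The neighbours Tubb2a and Tubb2b on chromosome 13, whose coding sequences are 96.5% identical, had 2372 and 1992 reads (0.31, interval 0.23 to 0.40) and 2485 and 2253 reads (0.20, interval 0.12 to 0.29). Summed they had a ratio of 0.26 (interval 0.20 to 0.32). The isotypes best known from neurons were scarce. Tubb3 had 209 and 177 reads (0.30, interval 0.0064 to 0.60). Tubb4a had 69 and 53 reads (0.43, interval -0.09 to 0.99), the highest value among beta tubulins and one whose interval holds a ratio of 1. Tubb4b-ps1 had 116 and 129 reads and the lowest value (-0.09). The deposited table gives it a protein-coding biotype, whereas GENCODE vM21 calls it a processed pseudogene, and 52.4% of its 50-base words occur in Tubb4b.

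Per length, Tubb5 supplied 55.6% of beta tubulin in IR and 59.1% in NC, Tubb4b 21.8% and 20.3%, and Tubb6 16.2% and 14.9%. In both families the leading gene therefore held a smaller share in the IR library. Summed over genes, alpha tubulins had 85150 IR and 76439 NC reads (log2 0.22, interval 0.20 to 0.23), and beta tubulins 123969 and 121974 (0.09, interval 0.07 to 0.10). All tubulins together took 0.609% of the counted reads in IR and 0.564% in NC.

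**Figure D2:**
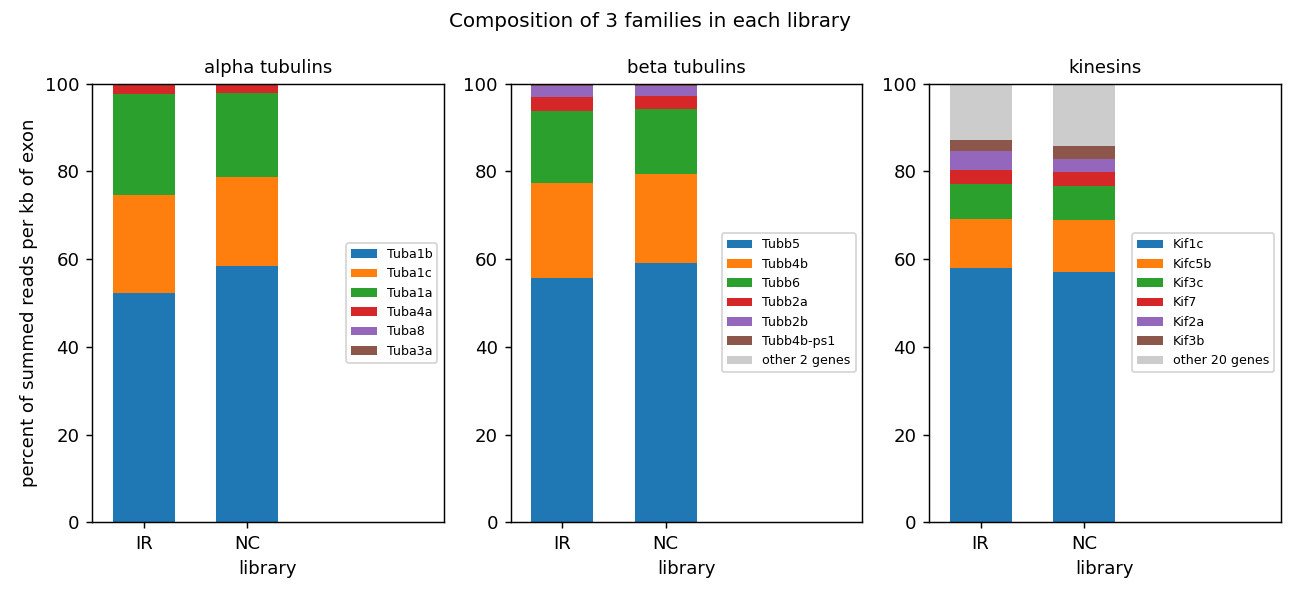
Share of each gene in the summed level per kilobase of exon of alpha tubulins, beta tubulins and kinesins in the IR and NC libraries, in percent. Tuba1b falls short of its NC share in IR (52.2% against 58.3%), as does Tubb5 (55.6% against 59.1%). Among the member kinesins, the mitotic ones left out not being counted, Kif1c holds most in both libraries (58.0% and 57.0%).

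Gamma tubulin was almost all Tubg1, whose product seeds microtubules at the centrosome. It had 5299 IR and 4960 NC reads (log2 0.16, interval 0.10 to 0.21), and its neighbour Tubg2, with a coding sequence 93.3% identical, 99 and 126 reads (-0.28, interval -0.68 to 0.11). Tubg1 made up 97.6% of gamma tubulin per length in IR and 96.8% in NC.

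Promoter windows are shown for the chromosome 15 cluster, whose genes share nearly all coding sequence. A link between these windows and the ratios was not tested. They run from 250 bases before to 50 after a transcript start that RefSeq gives, 5′ to 3′, from RefSeq on GRCm38.p6. Capitals mark CCAAT boxes (CCAAT) and GC boxes (GGGCGG), searched on both strands (ATTGG and CCGCCC where they lie on the other one) together with TTTGAA and TATAAA.
Tuba1a, chr15:98953452-98953751 (minus strand): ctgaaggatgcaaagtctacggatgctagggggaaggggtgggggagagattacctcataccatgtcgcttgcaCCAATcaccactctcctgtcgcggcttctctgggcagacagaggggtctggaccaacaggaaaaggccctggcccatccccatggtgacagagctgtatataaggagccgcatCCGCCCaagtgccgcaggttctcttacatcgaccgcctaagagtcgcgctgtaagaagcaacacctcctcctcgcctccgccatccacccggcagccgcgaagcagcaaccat
Tuba1b, chr15:98934341-98934640 (minus strand): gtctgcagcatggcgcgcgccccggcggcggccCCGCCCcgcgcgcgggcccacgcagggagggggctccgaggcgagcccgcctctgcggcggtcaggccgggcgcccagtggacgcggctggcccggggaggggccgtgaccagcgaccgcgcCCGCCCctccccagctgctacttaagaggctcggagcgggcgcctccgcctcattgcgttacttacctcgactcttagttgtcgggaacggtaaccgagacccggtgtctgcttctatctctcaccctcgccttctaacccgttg
Tuba1c, chr15:99029641-99029940 (plus strand): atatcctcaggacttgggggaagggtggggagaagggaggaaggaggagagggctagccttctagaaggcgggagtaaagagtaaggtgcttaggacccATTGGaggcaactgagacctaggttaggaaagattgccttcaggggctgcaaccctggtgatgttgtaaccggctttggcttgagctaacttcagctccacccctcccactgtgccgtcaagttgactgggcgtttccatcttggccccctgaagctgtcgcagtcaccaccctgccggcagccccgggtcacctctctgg
Tuba1a holds 1 CCAAT and 1 GC box, Tuba1b 2 GC boxes, and Tuba1c 1 CCAAT box. TTTGAA and TATAAA occur in none of these 3 windows. Of the 60 windows found for 50 of the members, 61.7% held a GC box and 41.7% a CCAAT box, against 35.7% and 37.4% of all 32851 windows. All windows come from 27025 genes, more than the 14694 genes with counts, and no set matched for expression was compared. These matches describe letters, not factor binding. The RefSeq starts used for Tuba1a and Tuba1b lie inside the gene as GENCODE vM21 gives it, and that of Tuba1c at its start.

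Of the 7 compared genes whose products act on free tubulin or on growing ends, 2 had an interval above a ratio of 1 and 1 below. Stmn1, the stathmin of dividing cells, had 8599 IR and 9439 NC reads (log2 -0.07, interval -0.11 to -0.03). Its 128 and 135 RPKM gave it nearly all stathmin, and the neuronal stathmins were scarce, with 103 and 114 reads for Stmn4, 5 and 0 for Stmn2, and 1 and 0 for Stmn3. Among end-binding proteins, Mapre3 (EB3) had 3639 and 3921 reads (-0.05, interval -0.11 to 0.02) and Mapre1 (EB1) 2538 and 2638 (0.01, interval -0.07 to 0.09). Mapre2 (EB2) stood apart from both, with 1457 and 1127 reads (0.43, interval 0.32 to 0.55). Of the CLASPs, which slow the loss of tubulin from microtubule ends, Clasp1 had 782 and 796 reads (0.04, interval -0.11 to 0.18). Clasp2 had 191 and 130 (0.61, interval 0.29 to 0.95). Mapre2 and Clasp2 thus had intervals above a ratio of 1, while those of their paralogs held it.

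Cytoplasmic dynein is built around a pair of heavy chains that hold the motor, with intermediate and light intermediate chains that bind dynactin and cargo adaptors. Dync1h1, the heavy chain (chromosome 12), had 12948 IR and 16770 NC reads (log2 -0.31, interval -0.34 to -0.28). Dync1i2, the intermediate chain of most cells, had 2177 and 1435 reads (0.66, interval 0.57 to 0.76), the highest ratio among dynein and dynactin genes. Dync1li1, a light intermediate chain, had 1809 and 1692 reads (0.16, interval 0.06 to 0.26). Subunits of one complex thus lay on both sides of 1, and the level of Dync1i2 per length was 0.318 of that of Dync1h1 in IR and 0.162 in NC. Per coding length the order turned in IR, where Dync1i2 held 27.6% of these chains and Dync1h1 22.5%, against 17.4% and 28.0% in NC. Dync1i1, the intermediate chain best known from neurons, had 1 read in each library.

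The second dynein moves cargo back from the tip of cilia. Its heavy chain Dync2h1 had 67 IR and 124 NC reads (log2 -0.81, interval -1.28 to -0.39), the lowest ratio in the group, and its light intermediate chain Dync2li1 950 and 1325 (-0.42, interval -0.54 to -0.30). Both lay below 1. Their levels per length were far apart, 0.117 and 0.208 RPKM for Dync2h1 against 14.6 and 19.5 for Dync2li1.

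The light chains of dynein, which also bind many other proteins, had a median of 0.04. Dynll2 led per length with 97.8 RPKM in IR and 103 in NC (9338 and 10306 reads, log2 ratio -0.08), followed by Dynll1 (7411 and 6936 reads, 0.16, interval 0.11 to 0.21). Dynlrb1, of the roadblock family, had 1418 and 1120 reads (0.40, interval 0.29 to 0.52). The Tctex-type chain is encoded by 4 gene copies on chromosome 17 whose coding sequences are 99.7% to 100% identical. Among these copies were the lowest light chain, Dynlt1b (180 and 275 reads, -0.54, interval -0.83 to -0.27), and the highest, Dynlt1c (67 and 48 reads, 0.52, interval -0.01 to 1.11). Summed, the copies had 827 and 909 reads and a ratio of -0.07 (interval -0.21 to 0.06). The copies lay on both sides of 1, and the interval of their sum held it. Their paralog Dynlt3 had 208 and 251 reads (-0.21, interval -0.48 to 0.06).

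Dynactin links dynein to cargo, and all 6 genes with a Dctn symbol in the table were compared. Subunits under other symbols fall outside the rule. Of these 6, Dctn3 was the highest per length, with 174 RPKM in IR and 152 in NC (6319 and 5771 reads, log2 ratio 0.19). Per coding length Dctn2 was above it in NC (38.3% of the summed level of the 6 genes against 33.5%) but not in IR (32.5% against 37.1%). Dctn2 (dynamitin), which splits dynactin when overproduced, had 11931 and 14240 reads and the lowest ratio (-0.19, interval -0.23 to -0.16). Dctn6, at the pointed end, had 1106 and 939 reads and the highest (0.30, interval 0.17 to 0.43). Dctn5 and Dctn4, further subunits of the pointed end, were at 0.15 and 0.23, and Dctn1 (p150Glued), the arm that grips microtubules, at -0.05 (interval -0.10 to 0.0025). The 4 of these genes higher in IR were thus Dctn3 and Dctn4, Dctn5 and Dctn6 of the pointed end. In sum the 6 genes had 29145 and 30899 reads and a ratio of -0.02 (interval -0.05 to 0.0013).

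**Figure D3:**
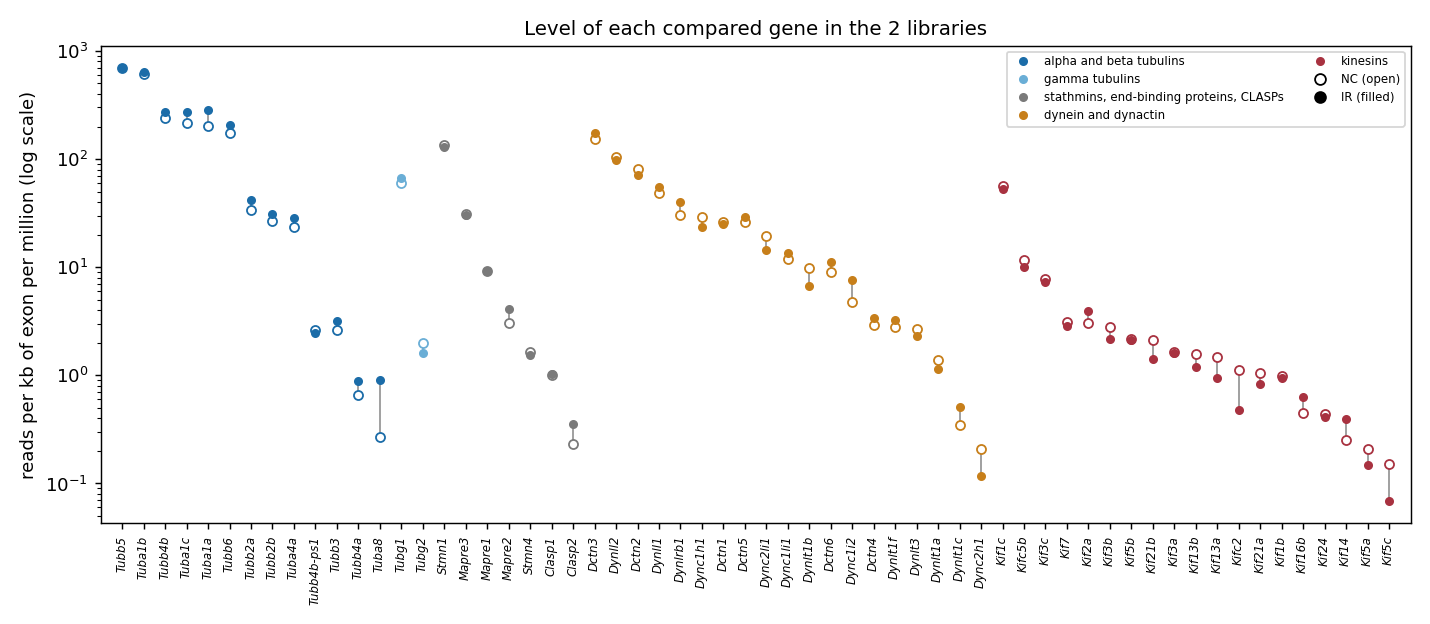
RPKM, on a log scale, of each compared gene in the IR (filled) and NC (open) libraries, ordered within each family by the NC level. Tubb5 leads at 701 and 691, and Kif1c leads the member kinesins at 52.4 and 56.1. The gap between libraries is widest for Tuba8 (0.899 against 0.267).

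Kinesins carry a motor head that differs little between families, and their tails decide the cargo. Per length, Kif1c supplied 58.0% of the summed level of the 26 kinesins among the members in IR and 57.0% in NC. The mitotic kinesins left out are not in this sum. In RPKM, Kifc1 among them had 56.2 in IR and 51.8 in NC, against 52.4 and 56.1 for Kif1c. Kif1c (kinesin-3, chromosome 11), which carries vesicles and integrins to the cell's tail and adhesions, had 13300 and 14872 reads (log2 -0.10, interval -0.13 to -0.06), and centring on a trend over length and GC content moved it to 0.01. Kifc5b, a kinesin-14, came next among the members with 10.1 and 11.6 RPKM (1298 and 1569 reads, -0.21, interval -0.32 to -0.10). Its coding sequence is 98.1% identical to that of the mitotic Kifc1, and the reads of both together had a ratio of 0.06 (interval 0.01 to 0.10), on the other side of 1. Kif3c followed with 7.30 and 7.79 RPKM (1885 and 2102 reads, -0.09, interval -0.19 to -0.0044), with 40.7% of its exon sequence overlapping other genes. Per coding length Kif3c was above Kifc5b, with 11.3% of member kinesin against 9.20% in IR and 11.1% against 9.83% in NC.

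Kinesin-1, the main outward motor for organelles, was mostly Kif5b, with 594 IR and 627 NC reads (log2 -0.02, interval -0.18 to 0.15, with no fixed sign across scalings). The neuronal heavy chains were scarce. Kif5a had 36 and 53 reads (-0.47, interval -1.15 to 0.14). Kif5c (chromosome 2) had 17 and 39 reads and is one of the members at least 2-fold lower (-1.05, interval -2.05 to -0.28). With a prior count of 5 in place of 2 its value was -0.95, and the call was lost. Kinesin-2 drives transport into cilia. Its Kif3a had 202 and 214 reads (-0.02, interval -0.31 to 0.26), its partner Kif3b 424 and 575 (-0.38, interval -0.56 to -0.19), and Kif17 11 and 17.

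The other kinesin-3 motors lay on both sides. Kif13a, which moves recycling endosomes, had 268 IR and 439 NC reads (log2 -0.65, interval -0.87 to -0.43), and Kif13b 537 and 751 (-0.42, interval -0.58 to -0.26). Kif1b, a carrier of vesicles and mitochondria, was level (576 and 635 reads, -0.08, interval -0.24 to 0.09). Kif16b, which binds early endosomes, had 201 and 147 (0.51, interval 0.20 to 0.83). Kif14 had 142 and 95 reads (0.63, interval 0.26 to 1.03), the highest value of any compared kinesin among the members. It acts in cytokinesis, the last step of cell division, although the rule did not leave it out. Kif1a, a neuronal motor, had 0 and 2 reads.

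The 3 compared kinesin-4 motors had ratios below 1, with an interval that held 1 for Kif7. Kif21b, which restrains microtubule growth, had 607 IR and 940 NC reads (log2 -0.57, interval -0.72 to -0.42), its paralog Kif21a 186 and 249 (-0.36, interval -0.64 to -0.08), and the Hedgehog pathway kinesin Kif7 454 and 517 (-0.12, interval -0.31 to 0.06). Kinesin-13 motors take microtubules apart from their ends. Kif2a had 877 and 703 reads (0.38, interval 0.24 to 0.53), with 19.2% of its exon sequence overlapping other genes, and the centriolar Kif24 had 114 and 129 (-0.11, interval -0.49 to 0.26). Kifc2 (chromosome 15), a kinesin-14 best known from neurons, had 66 and 161 reads. Its ratio of -1.20 (interval -1.66 to -0.80) was the lowest of all members, a difference of at least 2-fold.

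Among the 11 members with fewer than 50 reads over both libraries, 7 were kinesins. Kif19a, a kinesin of ciliary tips, had 33 IR and 2 NC reads, and Kif9, a kinesin of motile cilia, had 11 and 29. Kif27 had 10 and 4 reads, Kif26b 13 and 14, and Kif26a 0 and 2. The others, named above, were Kif1a, Kif17, Tuba3a, Dync1i1, Stmn2 and Stmn3. No ratio is given for them. Counts of 0 allow up to 3 reads per library, or 0.086 CPM in IR and 0.0824 in NC. Without the filter on reads, 2 members were at least 2-fold higher, Tuba8 and Kif19a, and 3 at least 2-fold lower, with Kif9 added.

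Transcript length runs along with the contrast of tubulins and kinesins. All 15 compared tubulins have a longest transcript of up to 3 kb, and 18 of the 19 compared kinesins a longer one. Over all genes the median log2 ratio was 0.04 up to 3 kb and -0.05 above it, and among the members it was 0.16 (30 genes) and -0.09 (30 genes). Spearman's rho of length and ratio was -0.256 across the 60 members and -0.124 across the 10881 compared genes with an annotated length, a description across genes that share 2 libraries. After centring on the trend over length, the median was 0.26 for alpha and beta tubulins and -0.09 for kinesins. Intervals then lay above 1 for 9 of the 13 tubulins and below 1 for 9 of the 19 kinesins. Centring on length alone was chosen after seeing the data, and it moved 9 of the 60 members outside their main interval. With length and GC content together 11 members moved so, and the kinesins Kif1c and Kif7 changed sign. The family medians under that centring are not given here.

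**Figure D4:**
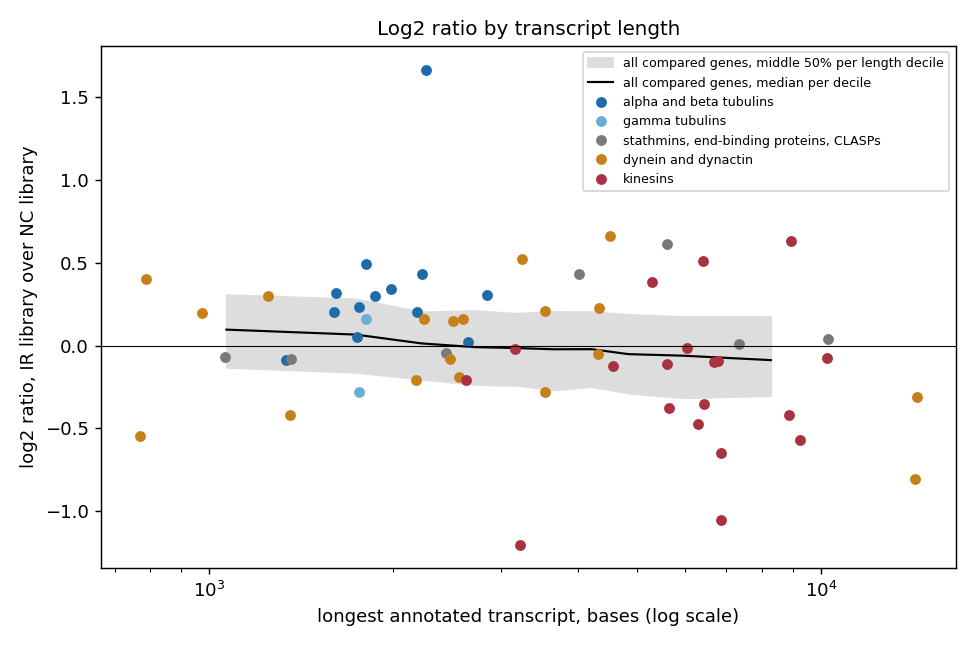
Log2 ratio of IR over NC against the length of the longest annotated transcript (log scale) for the 60 compared members, over the median and middle 50% of all compared genes per length decile. The all-gene median runs from 0.10 in the shortest decile to -0.09 in the longest, and tubulins and kinesins occupy different lengths.

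The 11 kinesins that the rule left out contrast with those kept. Of the 10 compared, 9 had an interval above a ratio of 1 and none below, 3 were at least 2-fold higher, and the median was 0.69. Kif20b was highest (100 and 27 reads, 1.87, interval 1.33 to 2.62) and Kif15 lowest (42 and 50 reads, -0.18). Kif20a (1.29) and Kif4 (1.11) were the other two at least 2-fold higher, and Kif18a, with 11 and 34 reads, was not compared. Among the kinesins kept, 10 of 19 compared had an interval below 1. The cell cycle homology region TTTGAA, a promoter element of genes that peak in G2 and mitosis, was found in 9 of the 10 windows of the kinesins left out. It was in 8 of 60 member windows (13.3%) and 17.9% of all windows. Matches were counted on either strand and anywhere in a window, and they describe letters, not factor binding. Kif15, the lowest in ratio, held the element too. A link between the element and the ratios was not tested, and no set matched for expression was compared. Stretches of 30 bases around it are shown for members with at least 50 reads, and for Kifc1 beside its copy Kifc5b, from RefSeq on GRCm38.p6, with the element in capitals (TTCAAA where it lies on the other strand).
Kif14, chr1:136467608-136467637 (plus strand): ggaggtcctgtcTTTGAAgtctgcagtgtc
Clasp2, chr9:113793259-113793288 (plus strand): ccagacttttatTTTGAAgtggagtagcag
Tubb4b, chr2:25224883-25224912 (minus strand): gcaaatcaatcaTTTGAAacacccaatgga
Dctn1, chr6:83179370-83179399 (plus strand): agtgctgatcatTTTGAAgtggcacttgat
Kifc5b, chr17:26917108-26917137 (plus strand): cggaggttgaaaTTCAAAagtgactggtgt
Kifc1, chr17:33890615-33890644 (minus strand): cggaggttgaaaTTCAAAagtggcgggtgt
The log2 ratios of these members, in the order shown, were 0.63, 0.61, 0.21, -0.05 and -0.21. The windows follow RefSeq transcript starts, and those of Kif14, Clasp2 and Dctn1 shown here lie inside the gene as GENCODE vM21 gives it.

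Genes that work with the members were close to level as lists. Over 8 lists of partners, the kinesins left out aside, 106 of 125 genes in the table were compared. Of these 34 had an interval above 1 (32.1%) and 35 below (33.0%), shares near those of all genes; none was 2-fold different, and the median was 0.0047. Kinesin light chains and KAP3 had a median of 0.10 (1 of 4 above, 1 below), with Klc3 highest (0.28) and Klc1 lowest (-0.09). Dynein adaptors and regulators had 5 of 17 above and 6 below. Ccdc88b was highest there (0.77) and Ccdc88a lowest (-0.84, from 21 and 41 reads).

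Tubulin folding cofactors had 10 of 20 above and 8 below, from the prefoldin subunit Pfdn4 (0.67) to its partner Vbp1 (-0.39). Structural proteins along microtubules had 5 of 18 above and 6 below, from the crosslinker Macf1 (0.47) to tau, Mapt (-0.60). Enzymes that modify tubulin had 5 of 15 above and 4 below, from the ligase Ttll7 (0.61) to the detyrosinating Vash1 (-0.60). Severing enzymes had 2 of 8 above and 1 below, from Katnal1 (0.30) to Fignl2 (-0.72). The gamma-tubulin ring complex had 1 of 9 above and 3 below, from Tubgcp4 (0.19) to Tubgcp6 (-0.58). Other plus-end and minus-end proteins had 5 of 15 above and 6 below, from the tubulin polymerase Ckap5 (0.77) to Amer1 (-0.95).

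**Figure D5:**
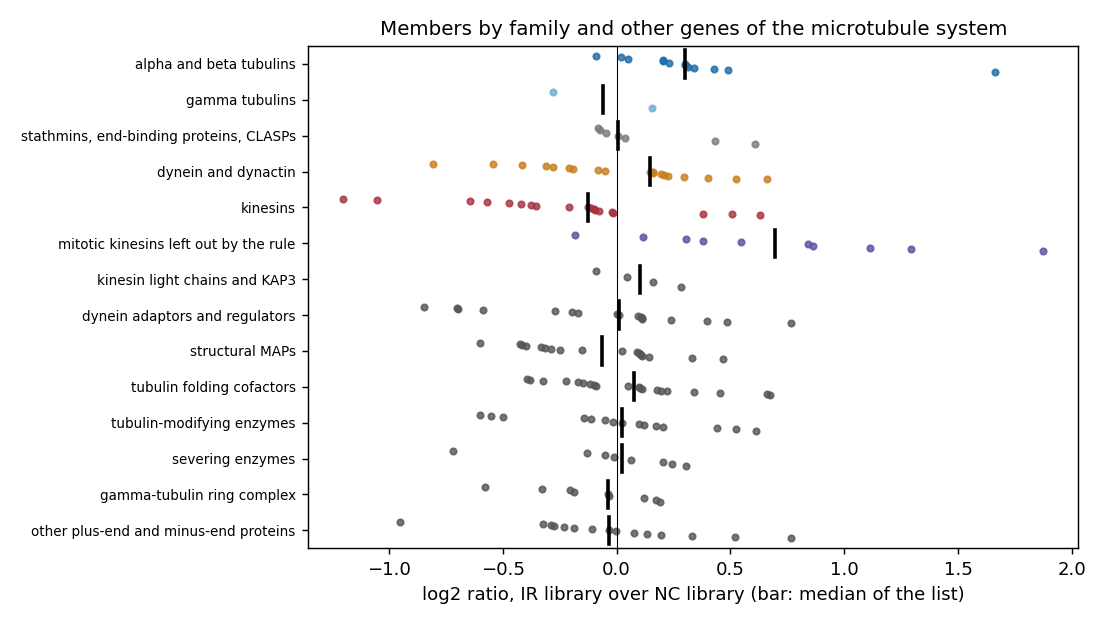
Log2 ratio of IR over NC for the compared members by family and for lists of other microtubule genes, 1 point per gene, with a bar at each list's median. The mitotic kinesins left out by the rule sit highest (median 0.69), alpha and beta tubulins next (0.30), and kinesins among the members lowest (-0.12).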

How the data were processed

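RNA from mouse lung fibroblasts, per the labels, was depleted of ribosomal RNA and sequenced in 1 library labelled IR and 1 labelled NC. The submitters' processing notes name cutadapt 1.9.3, HISAT2, HTSeq 0.9.1, edgeR and the mm10 build. The annotation release and the strand setting of the counting are not given in the sources used here. The authors deposited raw read counts per gene, whole numbers, for protein-coding genes, and these were used. Their 2 columns of normalized values were not used.

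The counts were scaled with edgeR 4.0.16 TMM factors (R 4.3.3; 0.991 for IR and 1.01 for NC). Log2 ratios used CPM with a prior count of 2. Exact 95% Clopper-Pearson intervals of the split of reads cover counting error only, since PCR reads without molecular identifiers are not independent molecules. Genes with at least 50 reads over both libraries were compared. A gene was called when its ratio reached 2-fold and its interval excluded 1. No p-value was computed, since each group has 1 library.

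Levels per length (RPKM) used the merged exons of GENCODE vM21, which matched 99.3% of the genes by ID. Sharing was measured as 50-base words of a gene's transcripts found in those of another gene. In data simulated with counting noise only, on 14694 genes, 100 of 100 genes changed 3-fold, 100 of 100 changed 4-fold and 3 of 10736 unchanged genes were called. No 2-fold change, the limit for a call, was simulated. The outcome is not split by number of reads. It therefore does not show how well genes as sparse as Tuba8 (93 reads over both libraries) or Kif5c (56) are called. Genes named are those called, the 3 highest per length and both extremes of each role list, further members of a family where the text goes through it, and the extremes of each partner list. The ends of the alpha tubulin coding sequences are not reported here. The members and lists were chosen with earlier results of these data known.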

Additional observations from a re-analysis of the deposited data

How the results depend on the processing

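No paired analysis was possible because each group has 1 library. Counting error alone limits genes with few reads, and the spread between cultures is unknown. Scaling by library totals shifted all log2 ratios by -0.03, and no member called 2-fold changed sign under any alternative. Small ratios did change sign: Mapre1 and Tubb5 with library totals, Mapre1 with totals that leave out the most abundant genes, Kif3a and Kif5b with upper-quartile factors or after centring on length, Kif5b and Mapre1 with NC thinned, and Dctn1, Kif1c, Kif7 and Mapre1 after centring on length and GC content. The median over all members, -0.0044, turned positive without a filter on reads or without Tubb4b-ps1 (0.0067 in both), with upper-quartile factors (0.0209), with NC thinned (0.0032) and after centring on length and GC content (0.0199) or on length (0.0209), and their mean was 0.0165.

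The member called at least 2-fold higher became 2 without a filter on reads and 4 under a 1.5-fold rule. It became 0 with at least 200 reads, with a 4-fold rule, without members that overlap other genes, or without members that share 50-base words. The 2 members called lower became 1 with a prior count of 5, with at least 200 reads, with NC thinned to the depth of IR, or after centring on length. They became 3 without a filter on reads, 4 under a 1.5-fold rule and 0 under a 4-fold rule. Of the alpha and beta tubulins, 7 of 9 had an interval above 1 without overlapping genes, and 3 of 4 without shared words. Over all members, 15 of 40 did so without shared words. The smaller numbers follow from fewer genes entering, and for the others the cause was not tested. Calls over all genes, 175 higher and 199 lower, became 584 and 606 without a filter, 73 and 71 with at least 200 reads, 665 and 754 under a 1.5-fold rule, and 10 and 14 under a 4-fold rule. Centring on length and a pseudogene left out (Tubb4b-ps1) were chosen after seeing the data.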
